A study of Homo sapiens with 4 samples.

Results

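Histones are the proteins around which DNA is wound, and 9 genes for histone variants and linker histones are described here in human BJ fibroblasts under oncogenic RAS. They were chosen by symbol, with earlier results of these data known, as histone genes whose mRNAs can carry a poly(A) tail: H2AFZ, H2AFV, H2AFX, H2AFY, H2AFJ, H3F3A, H3F3B, H1FX and HIST1H1C. All 9 have a row among the 12033 genes of the table, and all 9 reached the mean of 2 RPKM (read counts scaled by transcript length and by library size) that 7589 genes reached. BJ cells are a fibroblast line, immortalized here by hTERT, in which 4-hydroxytamoxifen (4-OHT) switches on RASG12V. Such cells stop dividing, a state called oncogene-induced senescence. All 4 libraries come from cells after 14 days of 4-OHT, so that none represents cells without RAS. The sgNT library carries a non-targeting sgRNA and is the control. The sg69 and sg71 libraries carry separate sgRNAs (numbers 69 and 71) against Enh.AP1.OIS1, an enhancer with an AP-1 site, and the sgFoxF1 library carries an sgRNA against the coding gene FOXF1, which the labels name as the target of that enhancer. The cells are transduced populations with mixed edits and not clones. The paper reports that cells with an sgRNA against the enhancer or against FOXF1 bypassed oncogene-induced senescence. In its assays such cells had less senescence-associated beta-galactosidase staining and more BrdU staining, a measure of proliferation, than control cells. Each comparison with sgNT therefore sets a population reported to bypass senescence against the control.

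Most histone mRNAs are made in S phase, end in a conserved stem-loop and lack a poly(A) tail. Variant genes are transcribed throughout the cell cycle, and their proteins replace the S-phase forms in the nucleosome at chosen places: H2A.Z at promoters, H3.3 in transcribed chromatin, macroH2A in silent chromatin and H2A.X everywhere, where its phosphorylation marks DNA breaks. Linker histones of the H1 family bind where DNA enters and leaves the nucleosome. In senescent fibroblasts the H3.3 chaperone HIRA, macroH2A and H2A.J are known for their part in the altered chromatin, and loss of H1 from chromatin has been described.

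Each condition has 1 library, so no value has a replicate error and no test was made. The difference between sg71 and sg69, which were aimed at the same enhancer, serves as the yardstick: over 7589 genes its log2 ratio had an SD of 0.29. The log2 ratios to sgNT had larger SDs over these genes, 0.48, 0.63 and 0.58 for sg69, sg71 and sgFoxF1. The yardstick holds no sgNT library, so a ratio to sgNT above it is not thereby beyond error. The table holds normalized values alone, and sequencing depth per library is therefore unknown. FOXF1 mRNA was at 29.6 RPKM in sgNT, 11.1 in sg69, 7.8 in sg71 and 25.0 in sgFoxF1, and its neighbour FENDRR was at 4.7, 1.8, 1.6 and 5.9 RPKM. An edit in a coding sequence need not lower the mRNA, so the last value does not measure FOXF1 protein. By western blot, the paper reports an effective FOXF1 knockout in cells with an sgRNA against FOXF1. HRAS mRNA was at 829.4, 446.4, 427.4 and 707.6 RPKM in that order, and its part in the histone values was not tested. Of 10 fibroblast markers, 9 were compared, and 2, 3 and 5 were at least 1.5-fold higher and 2, 2 and 0 lower in sg69, sg71 and sgFoxF1. Among all 7589 genes, 8.17%, 14.0% and 11.6% were higher and 9.92%, 14.7% and 13.2% lower. LUM was at 2.3, 8.3, 7.9 and 13.1 RPKM, S100A4 at 1166.9, 2053.4, 2295.5 and 1965.9 RPKM and COL1A1 at 120.6, 53.7, 42.5 and 115.6 RPKM in the order sgNT, sg69, sg71 and sgFoxF1. DCN was at the floor of the table, 1 RPKM, in sgNT and at 1.4, 2.7 and 3.4 RPKM in the others, so its differences are lower bounds. It reached the mean of 2 RPKM only through sg71 and sgFoxF1, where it is counted as higher, so the filter fixed its direction. FAP was at the floor throughout. VIM was at 1775.3, 2644.9, 2644.9 and 2382.4 RPKM, so fibroblast markers were present in all 4 libraries and differed between them in both directions. The part of these differences in the histone values was not tested. Of the other cell types, 0 of 5 epithelial, 0 of 5 endothelial and 1 of 5 leukocyte markers have a row, and that marker, CD14, was between 6.0 and 9.8 RPKM. In bulk RNA, fewer cells of a kind and less of an mRNA per cell cannot be told apart.

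In sgNT, H2AFZ was the highest of the 9 genes at 438.3 RPKM. H3F3B (47.2), H2AFX (40.3), H3F3A (32.2) and HIST1H1C (31.2 RPKM) formed a middle range. H2AFJ (17.6), H1FX (16.5), H2AFY (8.8) and H2AFV (8.6 RPKM) were lowest. The neighbours H3F3B and H2AFX, H3F3A and HIST1H1C, H2AFJ and H1FX, and H2AFY and H2AFV lay close together in sgNT. No order is drawn within these pairs. The yardstick compares libraries gene by gene, so it gives no error for differences between genes. Other places below H2AFZ in this order are therefore uncertain too. H2AFZ stayed first in sgFoxF1 at 123.9 RPKM, and the order below it varied by at most 2 places.

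**Figure D1:**
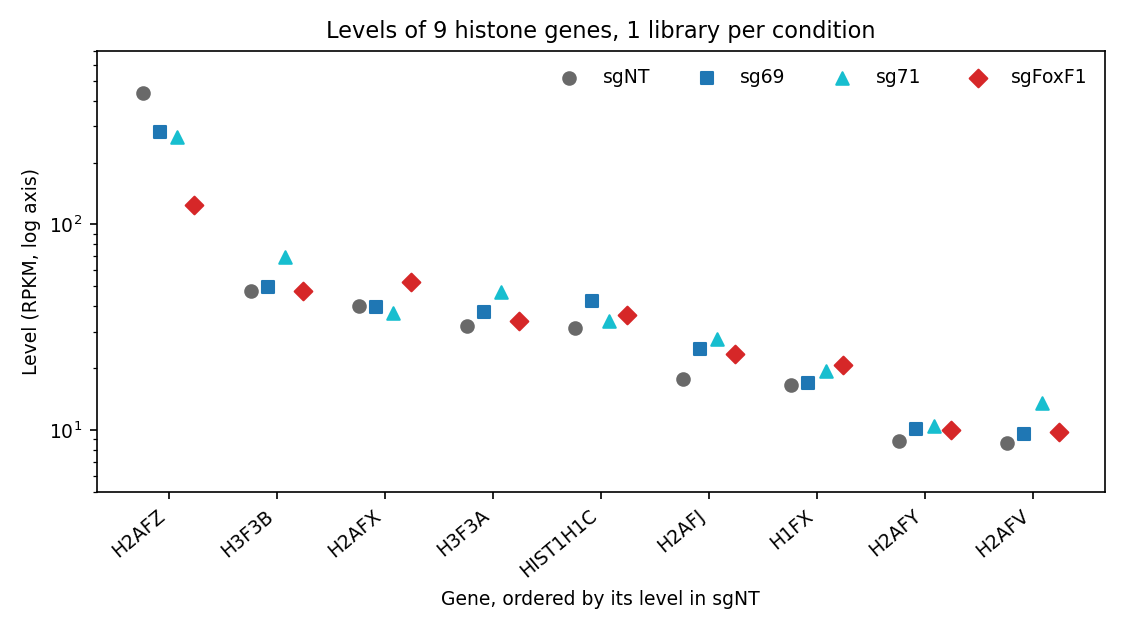
Level (RPKM, log axis) of each of the 9 genes in sgNT (circles), sg69 (squares), sg71 (triangles) and sgFoxF1 (diamonds), 1 library each, ordered by sgNT. H2AFZ spans 123.9 to 438.3 RPKM, the widest range, while the points of H2AFY lie between 8.8 and 10.4 RPKM.

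H2AFZ (ENSG00000164032, now H2AZ1, chromosome 4 of GRCh37 from 100869243 to 100871512 on the minus strand, 5 exons) encodes H2A.Z.1, the main form of H2A.Z. Its mRNA was at 438.3 RPKM in sgNT, 281.4 in sg69, 266.1 in sg71 and 123.9 in sgFoxF1. All targeted libraries lay below the control, sg69 and sg71 lay close together, and sgFoxF1 lay below both. The log2 ratios to sgNT were -0.64, -0.72 and -1.82, or 1.56-fold, 1.65-fold and 3.54-fold lower. By rank among all 12033 genes, H2AFZ stood at place 79 from the top in sgNT and at places 130, 138 and 329 in the targeted libraries. Among the 7589 genes compared, its ratio was number 641, 837 and 50 from the lowest with sg69, sg71 and sgFoxF1. Between sgFoxF1 and the enhancer guides the log2 ratio was -1.18 against sg69 and -1.10 against sg71, number 17 and 38 from the lowest, whereas sg71 and sg69 differed by a log2 ratio of -0.08.

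H2AFV (ENSG00000105968, now H2AZ2, chromosome 7 from 44866390 to 44887686 on the minus strand) encodes H2A.Z.2, a near-identical protein. Its mRNA was at 8.6 RPKM in sgNT, 9.6 in sg69, 13.5 in sg71 and 9.8 in sgFoxF1. It was thus lowest where H2AFZ was highest, although sg69 and sgFoxF1 stood only 0.16 and 0.19 above sgNT on the log2 scale, less than the yardstick SD, and sg71 stood 0.65 above. The coding sequences of H2AFZ and H2AFV hold 384 bases each without the stop codon, of which 309 (80.5%) are equal, and their longest shared run is 23 bases, so a 65-base read cannot lie wholly within one. H2AFZ made up 98.1% of the summed H2A.Z mRNA in sgNT, 96.7% in sg69, 95.2% in sg71 and 92.7% in sgFoxF1. The sum itself was 446.9, 291.0, 279.6 and 133.7 RPKM, so that H2AFV left the sum with nearly the same log2 ratios (-0.62, -0.68 and -1.74) as H2AFZ alone.

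The promoters of this pair are shown because the genes encode near-identical proteins at very different mRNA levels. Both are the RefSeq windows of GRCh38.p14 from 250 bases before to 50 bases after the start, read 5′ to 3′ on the minus strand, at chr4:99950226-99950525 for H2AFZ and chr7:44848038-44848337 for H2AFV. Capitals mark the CCAAT box on either strand (CCAAT or ATTGG).
H2AFZ promoter: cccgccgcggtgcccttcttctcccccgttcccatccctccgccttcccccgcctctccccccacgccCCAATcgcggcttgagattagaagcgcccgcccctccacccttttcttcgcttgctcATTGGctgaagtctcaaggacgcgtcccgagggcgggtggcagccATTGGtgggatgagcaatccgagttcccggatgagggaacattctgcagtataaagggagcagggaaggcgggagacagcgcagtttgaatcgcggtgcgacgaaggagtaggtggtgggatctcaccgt
H2AFV promoter: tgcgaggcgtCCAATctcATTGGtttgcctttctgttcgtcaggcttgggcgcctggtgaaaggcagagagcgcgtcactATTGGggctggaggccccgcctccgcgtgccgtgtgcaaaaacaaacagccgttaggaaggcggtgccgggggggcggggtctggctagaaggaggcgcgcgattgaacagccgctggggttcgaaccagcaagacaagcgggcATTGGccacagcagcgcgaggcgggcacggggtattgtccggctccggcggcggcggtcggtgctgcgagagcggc
H2AFZ holds 3 CCAAT boxes and H2AFV holds 4, and 34.6% of 35116 promoter windows hold at least 1. The letters TATAAA stand at -31 in H2AFZ and have no match in the H2AFV window (11.5% of all windows hold them), and TTTGAA stands at position 5 after the start in H2AFZ with no match in H2AFV (15.2% of all windows). GGGCGG occurs 2 times in H2AFZ and 1 time in H2AFV (45.0% of all windows). Each motif was searched on both strands, and a match describes letters and not a bound site. RefSeq windows matched all 9 genes.

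H2AFX (ENSG00000188486, chromosome 11 from 118964584 to 118966175 on the minus strand, 1 exon) encodes H2A.X, and its mRNA was at 40.3 RPKM in sgNT, 39.7 in sg69, 37.1 in sg71 and 52.3 in sgFoxF1. The enhancer guides lay within 0.12 of the control on the log2 scale, and sgFoxF1 stood 0.38 above it. H2AFJ (ENSG00000246705, chromosome 12 from 14927339 to 14930936 on the plus strand) encodes H2A.J, a variant known to accumulate in senescent fibroblasts, and was at 17.6 RPKM in sgNT, 24.8 in sg69, 27.7 in sg71 and 23.3 in sgFoxF1. Its log2 ratios were 0.49, 0.65 and 0.40, above 0 in all 3 targeted libraries, but 0.16, 0.26 and 0.10 when centred among genes of like transcript length, which ends the 1.5-fold difference in sg71. H2AFY (ENSG00000113648, chromosome 5 from 134670071 to 134735604 on the minus strand) encodes macroH2A1, whose splice forms a gene-level value does not separate. It was at 8.8, 10.1, 10.4 and 10.0 RPKM, and its log2 ratios of 0.20, 0.24 and 0.18 were smaller than the yardstick SD and 0.02, 0.03 and -0.01 when centred in the same way. With H2AFZ in the sum, the 5 H2A variant genes came to 513.6 RPKM in sgNT and 365.6, 354.8 and 219.3 RPKM in the targeted libraries, and the share of H2AFZ was 85.3%, 77.0%, 75.0% and 56.5%.

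H3F3A (ENSG00000163041, chromosome 1 from 226249552 to 226259720 on the plus strand) and H3F3B (ENSG00000132475, chromosome 17 from 73772515 to 73781974 on the minus strand) encode the same protein, H3.3. H3F3A was at 32.2 RPKM in sgNT, 37.5 in sg69, 46.8 in sg71 and 33.7 in sgFoxF1. H3F3B was at 47.2, 49.4, 69.3 and 47.6 RPKM. Both were highest in sg71, with log2 ratios to sgNT of 0.54 and 0.55, and both differed from sgNT by at most 0.22 in sg69 and sgFoxF1. Against sg69, the sg71 values of H3F3A and H3F3B stood 0.32 and 0.49 higher on the log2 scale. With 1 library per guide, no difference between the guides can be drawn from these values. H3F3B made up 59.4% of the summed H3.3 mRNA in sgNT, 56.8% in sg69, 59.7% in sg71 and 58.5% in sgFoxF1, and the sum was 79.4, 86.9, 116.1 and 81.3 RPKM. The level of H3F3A is uncertain, because 929 of the 1006 windows of 65 bases in its canonical transcript (92.3%) occur exactly elsewhere in GRCh37, all 929 of them in the annotated genes ENSG00000236449 and ENSG00000290018, which have no row. The same share was 7.42% for H3F3B, 5.94% for H2AFV, 4.61% for H2AFZ and 0.0% for the other 5 genes. The sources used here do not state how reads with several positions were treated. The coding sequences of H3F3A and H3F3B have 320 of 408 bases equal (78.4%), with a longest shared run of 14 bases.

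**Figure D2:**
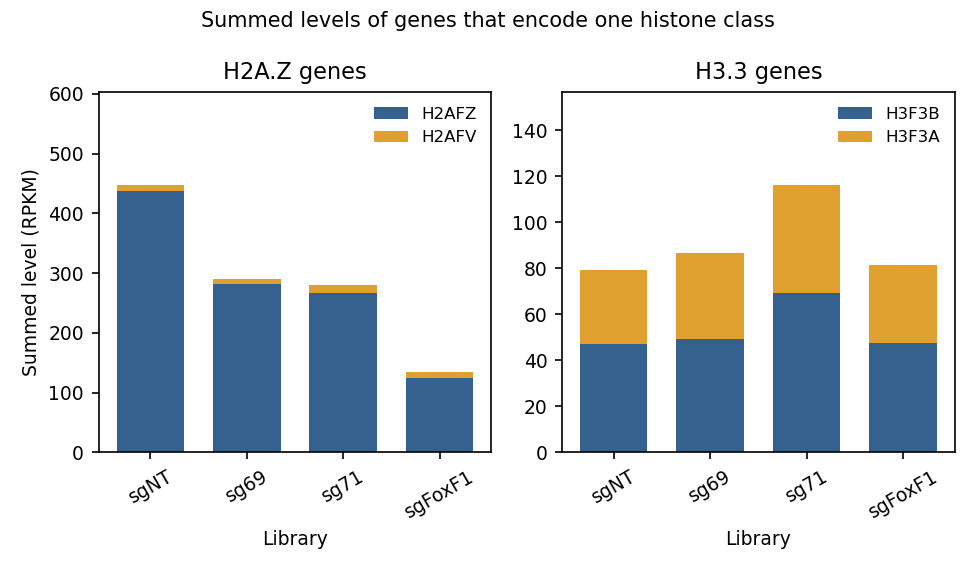
Summed level (RPKM, axes from 0 and different in each panel) of the H2A.Z genes and the H3.3 genes in each library, with 1 colour per gene. The H2A.Z bar shrinks from 446.9 RPKM in sgNT to 133.7 RPKM in sgFoxF1, whereas the H3.3 bar is highest in sg71 at 116.1 RPKM.

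The linker histone genes described here stood in the middle and low range. HIST1H1C (ENSG00000187837, chromosome 6 from 26055968 to 26056698 on the minus strand) encodes H1.2, an S-phase linker histone, and was at 31.2, 42.4, 34.0 and 36.3 RPKM. Its log2 ratios were 0.44, 0.12 and 0.22, but the last 2 become -0.27 and -0.09 when ratios are centred among genes of like transcript length. H1FX (ENSG00000184897, chromosome 3 from 129033614 to 129035129 on the minus strand) encodes H1X and was at 16.5, 16.9, 19.3 and 20.8 RPKM. Its ratios were 0.03, 0.23 and 0.33, of which the first 2 become -0.30 and -0.16 under the same centring. Neither gene reached a 1.5-fold difference in any comparison.

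The stem-loop of S-phase histone mRNAs was looked for after the stop codon of all 9 canonical transcripts and was found in HIST1H1C and H2AFX. The pattern was 2 exactly matched stems of 6 bases, the first opening with GG, around a loop of 4 bases opening with TT. Looser forms were not searched for. The sites are shown because they bear on what poly(A) selection measures. Both are GRCh37 sequence on the minus strand, at chr6:26055968-26055992 and chr11:118965603-118965628, and capitals mark the 16 bases of stem and loop.
HIST1H1C stem-loop: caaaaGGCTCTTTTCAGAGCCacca
H2AFX stem-loop: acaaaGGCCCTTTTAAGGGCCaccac
The site lies 27 bases after the stop codon in HIST1H1C, whose annotated transcript ends 4 bases after it. In H2AFX it lies 49 bases after the stop codon, and the annotated transcript runs on for 1024 bases. The RNA was selected for poly(A). How much of either value comes from tailed and how much from untailed transcripts was not measured.

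At a 1.5-fold difference from sgNT, 0 of the 9 genes were higher and 1 was lower in sg69, where 8.17% and 9.92% of all genes compared were. In sg71, 2 were higher (H2AFV and H2AFJ) and 1 was lower, against 14.0% and 14.7% of all genes. In sgFoxF1, 0 were higher and 1 was lower, against 11.6% and 13.2%. The lower gene was H2AFZ each time. With 1 or 2 of 9, these counts lie near the background shares. At a 2-fold difference 1.34%, 3.81% and 3.20% of all genes were higher in sg69, sg71 and sgFoxF1, and 3.31%, 6.39% and 4.95% were lower. Of the 9 genes, H2AFZ in sgFoxF1 was the 1 that differed 2-fold. The median log2 ratio of the 9 genes was 0.16, 0.24 and 0.19, and that of all genes compared was 0.07, 0.08 and 0.05. The 3 comparisons share the sgNT library. Between the guides themselves, 0 of the 9 genes differed 1.5-fold between sg71 and sg69 (2.41% of all genes were higher and 2.85% lower), and H2AFZ was the 1 gene that differed between sgFoxF1 and sg69 or sg71, lower in both. Of all genes, 4.51% were higher and 3.49% lower in sgFoxF1 than in sg69, and 8.91% were higher and 7.05% lower than in sg71. H2AFZ was also 2-fold lower against both, as 0.553% and 0.896% of all genes were. H2AFX stood 0.40 and 0.50 higher in sgFoxF1 than in sg69 and sg71 on the log2 scale.

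**Figure D3:**
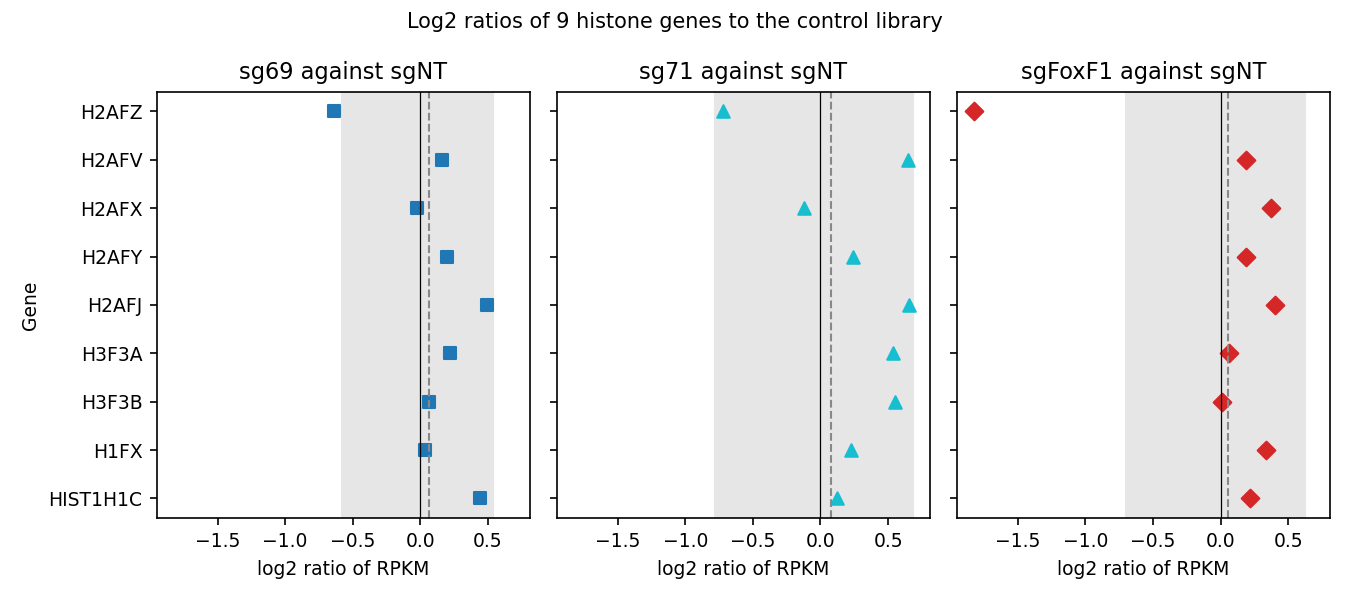
Log2 ratio of RPKM to sgNT of each gene in sg69, sg71 and sgFoxF1, with the 10th to 90th percentile of the 7589 genes compared in grey and their median as a dashed line. H2AFZ lies left of the grey band in sg69 and far left of it in sgFoxF1 at -1.82, and the other genes lie within the band in all 3 panels.

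The ratios of all genes moved with transcript length, and 6 of the 9 genes are in the shortest of 5 length classes of about equal size. In that class (122 to 1595 bases) the median log2 ratio was 0.33, 0.39 and 0.31 for sg69, sg71 and sgFoxF1, and in the longest class (5032 to 26468 bases) it was -0.29, -0.31 and -0.35. H2AFZ, with a canonical transcript of 866 bases, lay on the other side of 0 from its class. With the median of the class subtracted, its ratios were -0.97, -1.11 and -2.13. For the 9 genes the median after this step was 0.00, 0.03 and -0.01. The centred ratios of H3F3A were -0.11, 0.15 and -0.24, so its direction in sg69 and sgFoxF1 depends on this step. The 13 transcripts of the mitochondrial genome are a possible sign of RNA quality. Of these, 8, 10 and 7 were at least 1.5-fold lower than in sgNT and 0 were higher. Among all genes compared, 9.92%, 14.7% and 13.2% were lower and 8.17%, 14.0% and 11.6% higher. The median log2 ratios of the 13 transcripts were -1.02, -1.54 and -0.77. MT-CO1 (27029.4 RPKM) and MT-CO2 (36067.7 RPKM) had the same value in all 4 libraries, as quantile normalization gives equal ranks equal values. The largest differences were those of MT-ND4L (5249.2, 1073.3, 577.6 and 1326.5 RPKM), MT-ND5, MT-ND4 and MT-ATP8, whose log2 ratios were all between -3.18 and -1.13. The part of length or RNA quality in the ratios was not tested.

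Among other histone genes, 19 have a row and 13 were compared. At 1.5-fold, 1 was higher and 2 were lower in sg69, 2 and 3 in sg71, and 2 and 4 in sgFoxF1. Among all genes compared, 8.17%, 14.0% and 11.6% were higher and 9.92%, 14.7% and 13.2% lower. The same shares apply to the counts before length centring in the gene lists that follow. For counts after length centring, the share of all genes was not computed, so they have no background beside them. The median log2 ratios of the 13 histone genes were 0.09, -0.10 and -0.36, and -0.24, -0.49 and -0.67 when centred by length. HIST2H2BE, a core H2B gene that yields tailed mRNA, was at 29.6, 19.6, 14.4 and 15.1 RPKM in sgNT, sg69, sg71 and sgFoxF1. HIST1H2BC, also an H2B gene, was at 6.9, 4.1, 4.6 and 3.6 RPKM. CENPA, the H3 variant of centromeres, was at 1.5, 2.1, 4.0 and 2.3 RPKM. HIST2H2AC, an H2A gene, was at the floor of the table in sgNT and at 2.0, 3.5 and 2.2 RPKM in sg69, sg71 and sgFoxF1, so its differences are lower bounds. The higher genes were HIST2H2AC in each targeted library and CENPA in sg71 and sgFoxF1. Both reached the mean of 2 RPKM only through the targeted libraries, so the filter fixed their direction and nothing is drawn from these higher counts.

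The factors that deposit the variants were described from lists written from general knowledge. Of 7 genes for H3.3 deposition, 5 were compared, and DAXX in sg71 was the 1 value past 1.5-fold, with 0 past it after centring by length. Their median log2 ratios were 0.13, -0.14 and 0.23 in sg69, sg71 and sgFoxF1. DAXX, which places H3.3 at silent repeats with ATRX, was at 18.8, 21.9, 28.6 and 27.6 RPKM. UBN1, a partner of HIRA, had log2 ratios of -0.43, -0.46 and -0.41, and CABIN1, another partner, had -0.41, -0.51 and -0.29. Their transcripts are in the longest class, and the centred ratios were -0.14, -0.15 and -0.06 for UBN1 and -0.12, -0.20 and 0.06 for CABIN1. HIRA itself was at 2.2, 2.4, 2.0 and 2.8 RPKM, and ASF1A, which hands H3 and H4 to it, was at 3.5, 4.4, 4.0 and 4.1 RPKM. Of 21 genes for H2A.Z exchange, 15 were compared, and 0, 1 and 0 were higher and 1, 1 and 1 were lower at 1.5-fold. Their medians were 0.17, 0.37 and 0.21. The higher gene was ACTL6A, an actin-related subunit, at 7.4, 8.0, 13.2 and 7.9 RPKM. The lower gene among the 15 compared was TRRAP, a scaffold of the TIP60 complex, at 6.4, 3.2, 2.8 and 3.8 RPKM. Its length-centred log2 ratios were -0.71, -0.88 and -0.40, the last no longer past 1.5-fold. RUVBL1, an ATPase of the exchange complexes, had log2 ratios of 0.56, 0.55 and 0.47, VPS72, their H2A.Z-binding subunit, 0.47, 0.43 and 0.34, and KAT5, the acetyltransferase TIP60, 0.41, 0.44 and 0.56. Centred by length these were at most 0.38, and those of VPS72 were 0.14, 0.04 and 0.03. SRCAP, the ATPase of the other exchange complex, was at the floor in all 4 libraries. EP400, of the same list, was not compared because its mean was 1.9 RPKM. It was at 3.6, 1.3, 1.0 and 1.7 RPKM, with log2 ratios of -1.47, -1.85 and -1.08, so it too was lower in each targeted library. ACTR6, also not compared, was at 1.3, 1.5, 1.9 and 1.2 RPKM.

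Of 20 other histone chaperones, 17 were compared, of which 1, 4 and 2 were higher and 0, 2 and 1 lower at 1.5-fold in sg69, sg71 and sgFoxF1. Their medians were 0.06, 0.17 and -0.04. ASF1B, the replication-linked relative of ASF1A, was at 4.5, 7.6, 9.2 and 10.4 RPKM. HJURP, the chaperone of CENPA, was at 2.9, 4.2, 6.6 and 4.1 RPKM. SUPT6H, a chaperone that travels with RNA polymerase II, had log2 ratios of -0.57, -0.67 and -0.74, and NAP1L1, which binds H2A and H2B, had -0.39, -0.72 and -0.44. Both have long transcripts, and 0 chaperones were 1.5-fold lower after centring by length. Of 13 genes linked to stem-loop histone mRNAs, most of them through end processing, 7 were compared and 0 passed 1.5-fold in either direction. Their medians were 0.12, 0.15 and 0.03. LSM10, of the U7 particle, had log2 ratios of 0.30, 0.34 and 0.35, which become -0.03, -0.05 and 0.04 when centred by length. SYMPK, a scaffold of the cleavage complex, had -0.22, -0.31 and 0.19, CPSF1 -0.27, -0.42 and 0.03, and CPSF3, the endonuclease, -0.13, 0.20 and -0.23.

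H2AFZ was lower in libraries in which most of the compared proliferation markers were higher. Of 14 such markers, 13 were compared, and 4, 11 and 8 of them were at least 1.5-fold higher in sg69, sg71 and sgFoxF1 and 0 were lower. Among all genes compared, 8.17%, 14.0% and 11.6% were higher and 9.92%, 14.7% and 13.2% lower. The medians of the markers were 0.52, 0.80 and 0.74. After centring by length 1, 8 and 6 markers were higher and 0 were lower. The share of all genes past 1.5-fold after this step was not computed. MCM2, of the helicase that opens origins, was at 6.4, 10.6, 12.8 and 15.2 RPKM, BIRC5 at 15.8, 23.0, 32.6 and 28.6 RPKM and CDK1 at 1.4, 2.1, 2.4 and 3.5 RPKM. TK1, thymidine kinase, was at 23.0, 40.2, 47.6 and 44.7 RPKM, while PCNA, the sliding clamp, was at 43.2, 38.2, 40.5 and 38.6 RPKM. MKI67, the 1 marker not compared, was near the floor (2.8, 1.3, 1.7 and 1.6 RPKM). It was lower in each targeted library, with log2 ratios of -1.11, -0.72 and -0.81, and its mean under 2 RPKM kept it out of the counts. CDK1 reached that mean only through the targeted libraries. The count of 0 lower markers therefore depends on the filter. CDKN1A, the cell cycle inhibitor p21, was at 736.2, 627.8, 512.0 and 568.5 RPKM. LMNB1, the lamin lost in senescence, was at 2.9, 3.9, 5.5 and 4.5 RPKM. GLB1, the source of senescence-associated beta-galactosidase activity, was at 28.8, 22.3, 17.6 and 25.1 RPKM. The part of proliferation in the histone values was not tested.

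The patterns nearest to those of H2AFZ and H2AFJ, the 2 genes with the widest ranges over the 4 libraries, were sought by the root mean square difference of the 3 log2 ratios to sgNT. Nearest to H2AFZ were TMEM40 (0.06), CHAC1 (0.08) and SLC35F5 (0.13). CHAC1, which breaks down glutathione, was at 168.7, 99.6, 102.8 and 49.7 RPKM. Nearest to H2AFJ were APOPT1 (0.01), LAGE3 (0.02) and CWF19L1 (0.02), with log2 ratios between 0.40 and 0.66. These distances rest on 4 libraries with a common control.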

How the data were processed

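Poly(A) RNA was sequenced from 4 libraries, 1 per condition. According to the paper and the labels, the authors aligned single reads of 65 bases to hg19 with TopHat2, counted them per gene with HTSeq, turned the counts into RPKM by GENCODE annotation and applied quantile normalization. No source used here states tool versions. The deposited RPKM values have a floor of 1 and 1 decimal, and 2421 of 12033 genes lie at the floor in all 4 libraries. Quantile normalization removes depth from the values, so no counting error can be given. The paper describes a strand-specific kit and the labels name a kit without that term. H2AFZ, H2AFY, H3F3A, H3F3B and H1FX each overlap a gene on the opposite strand, whose reads could be included if strand was not used. The authors' 3 columns of deposited log2 ratios were not used.

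Log2 ratios were computed without a pseudocount for the 7589 genes whose mean over the libraries reached 2 RPKM, and 1.5-fold was the limit for calling a gene higher or lower. The centring code was tested on simulated data. The members and lists were chosen with earlier results of these data known. A gene that the choice also named is not reported here. Named are all 9 members, FOXF1, FENDRR, HRAS, MKI67, PCNA, CDKN1A, the genes of each list (4 at most) whose absolute log2 ratios were largest on average, and the 3 nearest patterns of 2 members. VIM, FAP, HIRA, SRCAP, EP400, ACTR6, ACTL6A, MT-CO1, MT-CO2, HIST1H2BK, HIST1H2BJ, HIST1H2BD and HIST1H2AC were named after their values were seen. Transcript length, GC content, gene positions and windows of 65 bases come from the canonical transcripts of GENCODE v44 lifted to GRCh37, the build named hg19 by the labels, with a length for 99.6% of the genes compared. Gene names were matched by Ensembl identifier. Alternatives were a pseudocount of 1, median centring, no filter or a minimum mean of 5 RPKM, a 2-fold rule and centring within 5 classes of transcript length. Centring within 5 classes of GC content, and length centring of the gene lists, were added after the data were seen. Python 3.11.15, numpy 2.4.6, pandas 2.3.3 and matplotlib 3.10.9 were used.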

Additional observations from a re-analysis of the deposited data

How the results depend on the processing

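The 1 gene at least 1.5-fold lower in each targeted library, H2AFZ, was counted under a pseudocount of 1, median centring, no filter on low values, a minimum mean of 5 RPKM and centring within 5 classes of length or GC content. A 2-fold rule left 0 lower genes in sg69 and 0 in sg71. The 2 genes higher in sg71 became 0 with median centring or a 2-fold rule and 1 with centring within 5 classes of length or of GC content. The share of all genes past 1.5-fold was not computed under these alternatives. With median centring H2AFV and H2AFJ were at 0.57 and 0.58, just under the 1.5-fold limit, with length centring H2AFJ was at 0.26, and with GC centring H2AFV was at 0.49. Of 27 log2 ratios, 8 changed sign with centring by length, 3 with median centring, 1 with centring by GC content and 0 with the pseudocount, and all of these were under 1.5-fold. Pseudogene rows could not be added to H3F3A or H2AFZ, as 0 rows carry such names. No paired analysis was possible because each condition has 1 library and no test was made. Without read counts, depth sets no known limit on these values, and with 1 library per condition none of the differences can be set against replicate error.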

Other observations

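Split by the histone they encode, a grouping made after the values were seen, the other histone genes gave the following values, while 55.0%, 55.2% and 54.0% of all genes compared had a log2 ratio above 0 in sg69, sg71 and sgFoxF1. Of 5 compared H2B genes, 4 were below 0 in each library, HIST1H2BK in sg69 by only 0.03, with medians of -0.50, -0.58 and -0.66. HIST1H2BK, the highest of them, was at 143.6, 140.7, 105.9 and 102.6 RPKM in sgNT, sg69, sg71 and sgFoxF1. HIST1H2BJ was at 13.0, 9.2, 6.7 and 8.2 RPKM. HIST1H2BD, the exception, was at 13.6, 14.3, 14.1 and 13.9 RPKM, but its length-centred log2 ratios were also below 0, at -0.26, -0.34 and -0.27. Of 5 compared H2A genes of the S-phase type, 0, 1 and 3 were below 0, with medians of 0.55, 0.23 and -0.36. Both types thus had a negative median in sgFoxF1. Among the H2A genes, HIST1H2AC was at 29.2, 31.5, 34.2 and 21.9 RPKM. Centred by length, HIST1H2AC was at -0.22, -0.16 and -0.72 and HIST2H2AC at 0.67, 1.42 and 0.83. The H2A counts below 0 therefore depend on this step.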
